A study of Homo sapiens with 6 samples.

Results

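Transcripts of 52 genes that build and run the mitotic apparatus were followed in 786-O, a long-established line of human clear cell renal carcinoma, after knockdown of the long non-coding RNA LINC02068. The genes encode mitotic kinases, the spindle checkpoint, CDK1 with its cyclins and activating phosphatases, the chromosomal passenger complex, the anaphase machinery, the kinetochore, condensin and spindle proteins, with the transcription factor FOXM1. They were taken by symbol from the deposited table, which holds 60649 genes, and all 52 were found and were among the 16039 genes with enough counts to test. The RNA-seq series has 3 groups of 2 libraries each: cells with a first short hairpin RNA against LINC02068 (shRNA1), cells with a second one (shRNA2), and cells with a control hairpin (shControl). All 3 groups are the same line, grown in RPMI-1640 with 10% fetal bovine serum, and no other treatment is given. The labels do not say how the hairpins were delivered, whether the cells are clones, or whether the 2 replicates of a group are separate cultures, so the spread behind the p-values may be technical.

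A cell enters mitosis when CDK1, bound to a B-type cyclin, is switched on by CDC25 phosphatases, and it leaves when the anaphase-promoting complex with its activator CDC20 marks securin and the cyclins for destruction. Until every kinetochore is held by microtubules, the spindle checkpoint keeps CDC20 inhibited through MAD2 and the BUB proteins, while condensin compacts the chromosomes. Many of these genes are transcribed together late in the cell cycle under FOXM1, MYBL2 and the MuvB complex, and their summed level is commonly read as a measure of proliferation.

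Total counts ran from 15376448 in shRNA1 replicate 1 to 37311846 in shRNA2 replicate 1, and 1 CPM (counts-per-million, with library sizes adjusted by TMM) stood for 14.9 to 36.0 counts. The lowest count of any of the 52 genes in a library was 54. LINC02068 itself had 20 and 32 counts in the controls, 9 and 2 with shRNA1 and 17 and 10 with shRNA2, so the check of the targeted RNA rests on few reads (log2 fold change −1.46 for the mean of both hairpins, edgeR adjusted p = 0.0447). All 9 markers of renal epithelium and clear cell carcinoma were detected at 1 CPM or more, their summed level being 7346 to 7363 CPM in the controls and 8867 to 8996 CPM with the hairpins. Most of that sum was VIM, at 5137 and 5145 CPM in the controls and 5893 to 5965 CPM with the hairpins. Single markers moved both ways. KRT8 rose from 831.5 and 830.1 CPM to between 1519 and 1602 CPM, and CDH6 from 286.7 and 280.3 CPM to between 514.5 and 541.2 CPM. EPAS1 fell from 541.2 and 558.5 CPM to between 280.4 and 282.5 CPM. Among markers of other cells, 4 of 6 for leukocytes were at 0 in every library and none of 4 for endothelium reached 1 CPM. CD68, also listed for leukocytes, had 35.8 and 39.6 CPM in the controls and 36.9 to 43.9 CPM with the hairpins, and CD14 stayed under 1 CPM. The fibroblast and pericyte markers summed to 17.0 to 18.4 CPM in the controls and 12.9 to 14.5 CPM with the hairpins (DCN at 0 throughout), and the proximal tubule markers to 3.54 to 3.67 and 6.04 to 7.55 CPM (LRP2 at 0 throughout). Their part in the results below was not tested.

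The mitotic genes did not move as a block. Averaged over both hairpins and set against shControl, 16 of the 52 were higher, 20 were lower and 16 did not pass the threshold (edgeR quasi-likelihood test, Benjamini-Hochberg adjusted p under 0.05 over all tested genes). The same test called 57.5% of all tested genes, 28.6% higher and 28.9% lower, so the 69.2% called here have to be read against a background in which most genes were called. With shRNA1 16 were higher and 19 lower, where 52.4% of all genes were called, 26.8% higher and 25.6% lower. With shRNA2 the counts were 16 and 20, where 52.8% were called, 26.7% higher and 26.1% lower. These comparisons share the 2 control libraries. The median log2 fold change was −0.01 for the 52 genes and −0.03 for all tested genes. Changes were mostly modest: 4 of the 52 (7.69%) moved by more than 1 on the log2 scale, against 16.2% of all tested genes, and 14 (26.9%) by more than 0.5, against 44.7%. In bulk RNA, a change in the share of cells in mitosis and a change in RNA per cell cannot be told apart.

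The sum over the 52 genes hardly changed, and its direction depended on the scaling. They took 0.577 to 0.592% of raw counts in the controls and 0.552 to 0.559% with the hairpins, whereas their summed TMM-scaled level was 5398 to 5475 CPM in the controls and 5712 to 5825 CPM with the hairpins. TMM factors were 1.07 to 1.08 in the control and 0.960 to 0.969 in the knockdown libraries. Without these factors the median of all genes shifted from −0.03 to −0.18 and that of the 52 genes from −0.01 to −0.16, and 10 of the 52 were called higher and 27 lower. PLK1, CDCA8 and AURKA turned from positive to negative, and PTTG1, CENPF, SMC4 and DLGAP5 stayed positive but were no longer called. Besides AURKA, 6 genes not called on the TMM scale were then called lower: BUB1B (−0.18, adjusted p = 0.0101), TTK (−0.23, 0.0222), CCNB2 (−0.20, 0.00324), CENPU (−0.24, 0.0407), TPX2 (−0.17, 0.000449) and CKAP2 (−0.22, 0.00431). CCNA2, INCENP, SPC25, NCAPG, PRC1, NUSAP1 and ASPM turned negative and were not called on either scale. All folds below are on the TMM scale.

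**Figure D1:**
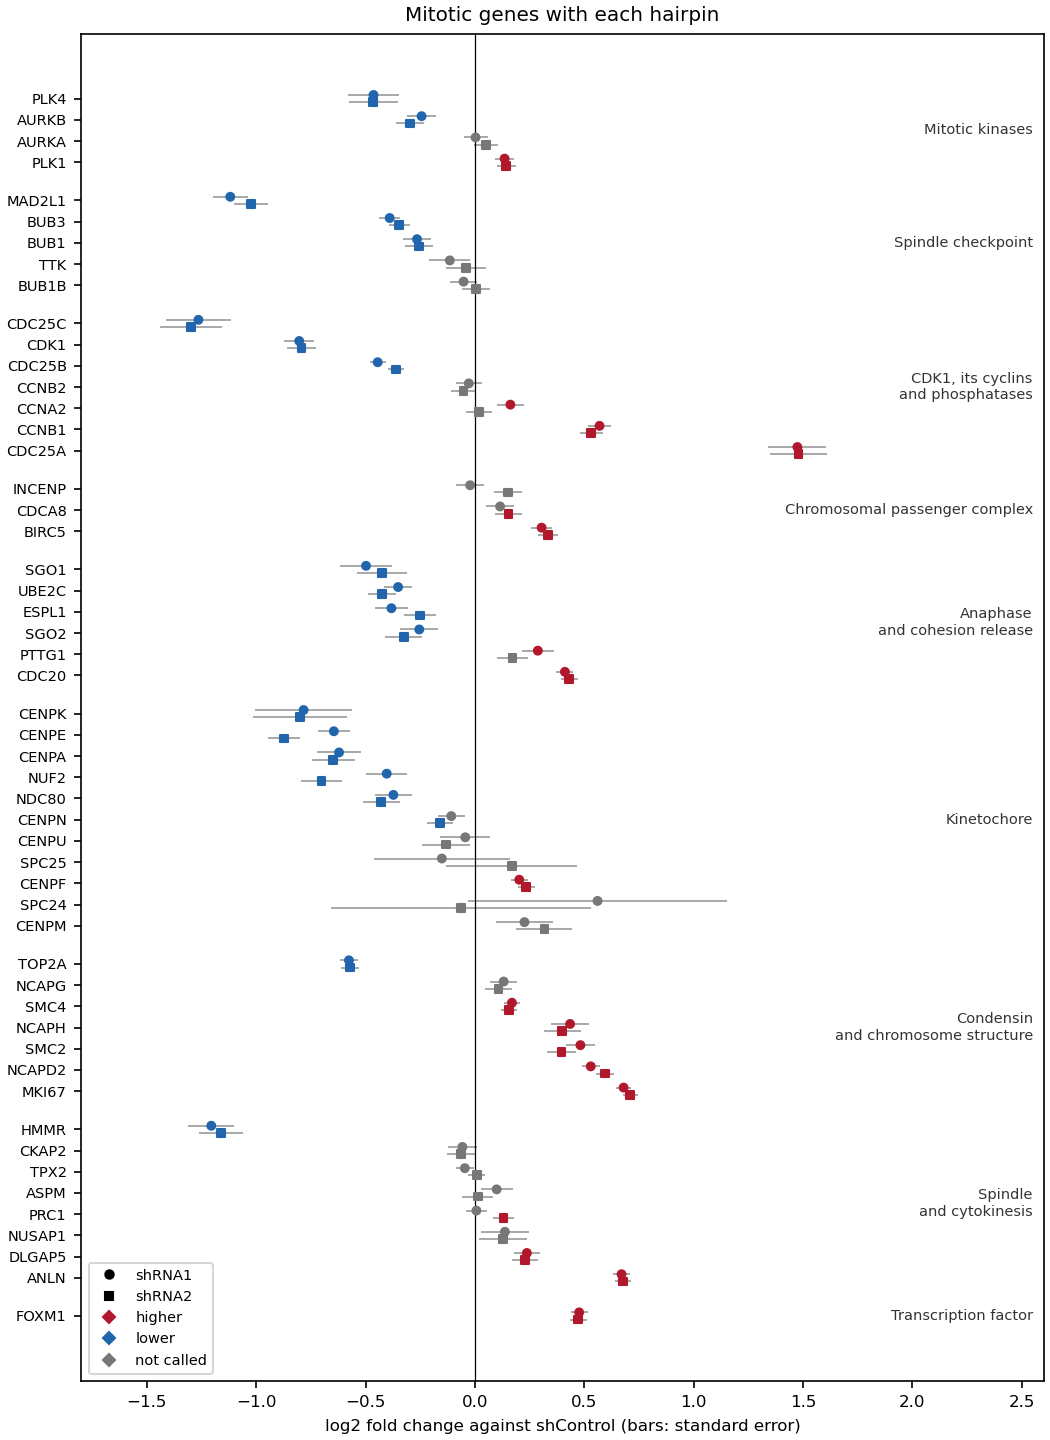
The log2 fold change of each of the 52 genes against shControl is plotted for shRNA1 (circles) and shRNA2 (squares), with standard errors as bars, ordered by role and coloured by the edgeR call of that hairpin. Both hairpins lie close together for most genes, from CDC25C at −1.28 to CDC25A at 1.48 for their mean, and every role with more than 3 genes except the spindle checkpoint holds genes on both sides of 0 that were called.

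The promoters of these genes carry sequence elements of late cell cycle transcription, among genes that were higher and among genes that were lower. The stretches printed here come from genes of opposite direction and like role. MKI67 and CDC25A were higher and TOP2A and CDK1 lower, CDC20 was higher and ESPL1 lower, and HMMR was among the most strongly lowered. The stretches are parts of longer windows, cut at different places, so the numbers of motifs marked in them cannot be compared. Capitals mark TTTGAA (the core of the CHR, the cell cycle genes homology region, to which the MuvB complex binds), CCAAT (the box of the factor NF-Y) and the E2F motif TTTCGCGC or TTTGGCGC, each searched on both strands, so that TTCAAA and ATTGG are the same motifs on the opposite strand. Each is printed 5′ to 3′ on the strand of its gene, from RefSeq's promoter windows on GRCh38.p14.
MKI67, chr10:128126424-128126543, minus strand: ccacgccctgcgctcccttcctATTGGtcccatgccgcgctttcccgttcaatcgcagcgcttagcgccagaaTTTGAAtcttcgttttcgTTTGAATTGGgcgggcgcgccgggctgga
CDC20, chr1:43358871-43358954, plus strand: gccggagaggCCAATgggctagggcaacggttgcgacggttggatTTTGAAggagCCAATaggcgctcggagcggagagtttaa
CDC25A, chr3:48188418-48188537, minus strand: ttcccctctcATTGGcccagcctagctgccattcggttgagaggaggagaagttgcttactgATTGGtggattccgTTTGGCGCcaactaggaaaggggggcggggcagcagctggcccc
ESPL1, chr12:53268179-53268298, plus strand: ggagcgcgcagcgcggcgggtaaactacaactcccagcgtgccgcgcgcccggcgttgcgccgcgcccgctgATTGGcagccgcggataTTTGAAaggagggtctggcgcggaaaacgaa
CDK1, chr10:60778161-60778280, plus strand: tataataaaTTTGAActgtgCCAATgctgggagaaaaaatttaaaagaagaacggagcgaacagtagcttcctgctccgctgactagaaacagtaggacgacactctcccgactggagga
TOP2A, chr17:40417951-40418096, minus strand: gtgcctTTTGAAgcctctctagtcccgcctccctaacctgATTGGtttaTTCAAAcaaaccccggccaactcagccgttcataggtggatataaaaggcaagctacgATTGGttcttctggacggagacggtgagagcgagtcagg
HMMR, chr5:163460602-163460631, plus strand: gaTTTGAATTTGAAaccggtagggagtgat
All of the stretches lie upstream of the RefSeq start. The HMMR stretch, 30 bases, lies inside an exon of the longer GENCODE 29 gene model, and the other 6 overlap no GENCODE 29 exon. In MKI67 the second CHR and an NF-Y box overlap, and in HMMR a pair of CHRs stands in tandem. The full windows hold further matches outside these stretches, with 5 NF-Y boxes in HMMR, 4 in TOP2A and 2 CHRs in CDC20. The E2F motif of CDK1, at bases 20 to 27 after the start, is not printed either.

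Of the 52 genes, 44 had a RefSeq window (250 bases before to 50 after the start). A CHR was in 28 of the 44 (63.6%), against 15.4% of all 27305 RefSeq windows, and an NF-Y box in 32 (72.7%), against 35.7%. Both occurred in 20 (45.5%), against 6.08%. The CHR was in 10 of 14 windows of genes that were higher (71.4%) and in 10 of 18 of genes that were lower (55.6%). An NF-Y box was in 11 of the former (78.6%) and 12 of the latter (66.7%), and 2 or more boxes in 9 (64.3%) and 5 (27.8%). Over all RefSeq windows 11.3% held 2 or more boxes. These shares were not tested against each other. CDC25B, CDC25C and CENPE, all lower, and CKAP2, not called, held none of the 3 motifs in this window. The E2F motif was in 4 of the 44 windows (9.09%), against 1.18% of all windows. These were the windows of CDC25A, which was higher, CDK1, which was lower, and CENPU and NUSAP1, which were not called. These matches are descriptions of the letters in the window, not evidence of binding in these cells.

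**Figure D2:**
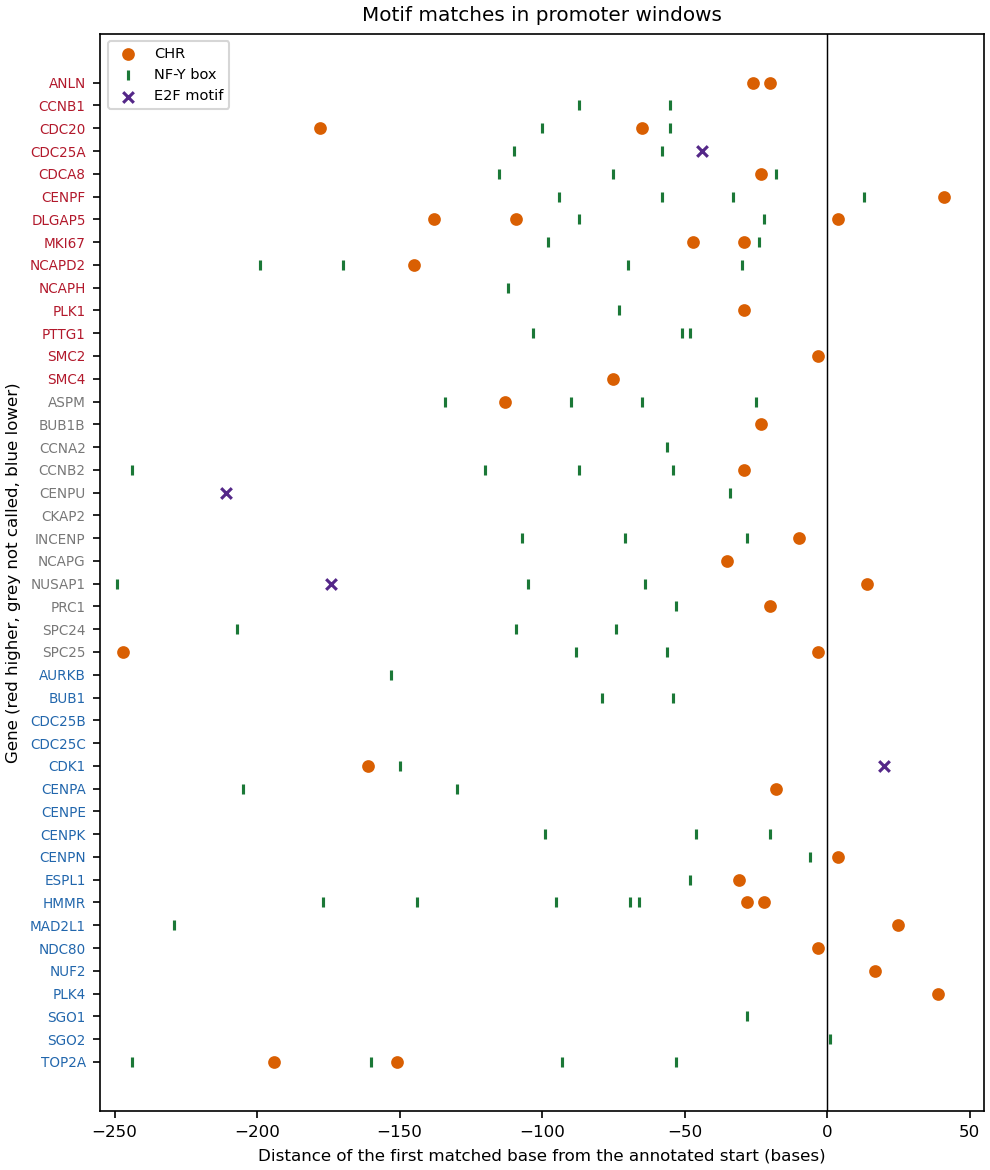
Positions of CHR (circles), NF-Y box (bars) and E2F (crosses) matches are drawn by the distance of their first base from the RefSeq start, for the 44 genes with a promoter window, with gene names coloured by the call for the mean of both hairpins. The CHR was in 10 of 14 windows of higher genes and 10 of 18 of lower genes, and 2 or more NF-Y boxes in 9 and 5 of them. Among 12 windows of genes not called, 8 held a CHR and 6 held 2 or more NF-Y boxes.

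CDK1 and its regulators moved apart from each other. CDK1, the kinase that drives mitotic entry, had 115 and 114 CPM in the controls, 65.7 and 66.0 CPM with shRNA1 and 70.9 and 61.4 CPM with shRNA2. All 4 knockdown libraries lay below both controls, at 57.5% of the control level (log2 fold change −0.80 ± 0.06 SE, edgeR adjusted p = 8.12e-09). CCNB1, cyclin B1, which activates it, went the other way, with 81.0 and 86.2 CPM in the controls, 126 and 122 CPM with shRNA1 and 120 and 123 CPM with shRNA2 (0.55 ± 0.05, adjusted p = 4.80e-08). Its groups did not overlap either. Per kb of exon, CCNB1 therefore stood at 1.08 and 1.16 times the level of CDK1 in the controls and at 2.59 to 3.07 times in the knockdown libraries. CCNB2, cyclin B2, did not pass the threshold (−0.04 ± 0.05, adjusted p = 0.517), nor did CCNA2, cyclin A2 (0.09 ± 0.05, adjusted p = 0.155), although CCNA2 was called higher with shRNA1 alone (0.16, adjusted p = 0.0362). The CCNA2 difference between the hairpins had an unadjusted p of 0.0330 and was not called.

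The CDC25 phosphatases, which remove the inhibitory phosphates from CDKs, held both the largest rise and the largest fall of the 52 genes. CDC25A, which acts at S-phase entry as well as at mitosis, had 8.47 and 10.9 CPM in the controls, 25.1 and 29.1 CPM with shRNA1 and 26.6 and 28.0 CPM with shRNA2. Every knockdown library was above both controls, and the mean was 278.2% of the control level (1.48 ± 0.12, edgeR adjusted p = 3.73e-08). CDC25C, the form that acts at the switch into mitosis, had 18.2 and 21.4 CPM in the controls, 7.79 and 8.67 CPM with shRNA1 and 8.41 and 7.65 CPM with shRNA2. It fell to 41.1% of the control level without overlap (−1.28 ± 0.12, adjusted p = 1.95e-07). A stretch of 293 bases of its exons is shared with FAM53C on the other strand, which had 10940 counts over the 6 libraries against 1684 for CDC25C, and the strand setting of the counting is not given in the sources used here. CDC25B, the most abundant of them, was lower (−0.40 ± 0.03, adjusted p = 2.17e-08), at 298 and 292 CPM in the controls and 214 to 231 CPM with the hairpins. Per kb of exon, CDC25A was at 0.378 and 0.415 times the level of CDC25C in the controls and at 2.56 to 2.96 times in the knockdown libraries.

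The spindle checkpoint held 3 genes that were lower, none that was higher, and 2 that were not called. For comparison, 28.9% of all tested genes were lower and 28.6% higher. MAD2L1, which encodes the MAD2 protein that binds and blocks CDC20, had 60.4 and 62.4 CPM in the controls, 29.3 and 27.4 CPM with shRNA1 and 30.3 and 30.1 CPM with shRNA2. The 4 knockdown libraries were near each other and far below both controls, at 47.6% of their level (−1.07 ± 0.07, edgeR adjusted p = 1.29e-09). BUB3, a WD-repeat protein that brings the BUB kinases to kinetochores, had 138 and 144 CPM in the controls and 107 to 111 CPM with the hairpins (−0.37 ± 0.04, adjusted p = 1.24e-06). BUB1, the kinase that recruits shugoshin and other checkpoint proteins, was lower by a smaller amount (−0.26 ± 0.05, adjusted p = 0.000693). BUB1B, which encodes BUBR1, had 63.0 and 64.4 CPM in the controls and 60.3 to 64.7 CPM with the hairpins (−0.02 ± 0.05, adjusted p = 0.737). TTK, the MPS1 kinase that starts checkpoint signalling, had overlapping groups too (−0.08 ± 0.08, adjusted p = 0.424).

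The 6 genes of anaphase and cohesion release were all called, 2 higher and 4 lower. Over all tested genes 57.5% were called, 28.6% higher and 28.9% lower. CDC20, the activator of the anaphase-promoting complex that MAD2 restrains, rose from 200 and 196 CPM in the controls to 266 and 261 CPM with shRNA1 and 273 and 261 CPM with shRNA2 (0.42 ± 0.03, edgeR adjusted p = 3.68e-08). All its knockdown libraries lay above both controls, opposite to MAD2L1 in the same libraries. PTTG1, securin, the inhibitor of separase, had 57.7 and 50.6 CPM in the controls and 60.0 to 67.5 CPM with the hairpins (0.23 ± 0.06, adjusted p = 0.00620). It was called with shRNA1 alone (0.29, adjusted p = 0.00406) and not with shRNA2 alone (0.17, adjusted p = 0.0601). The PTTG1 call was lost without shControl replicate 2 (0.13, adjusted p = 0.190). ESPL1, separase, the protease that cuts cohesin, had 54.8 and 56.2 CPM in the controls and 40.7 to 47.3 CPM with the hairpins (−0.32 ± 0.06, adjusted p = 0.000458). The shugoshins, which shield centromeric cohesin, were lower as well, SGO1 by −0.46 ± 0.10 (adjusted p = 0.000895) and SGO2 by −0.29 ± 0.07 (adjusted p = 0.00327). The SGO2 value was −0.08 (adjusted p = 0.350) once the trend on GC content and exon length was removed. UBE2C, the ubiquitin-conjugating enzyme of the anaphase-promoting complex, was at 101 and 102 CPM in the controls and 70.2 to 80.4 CPM with the hairpins (−0.39 ± 0.06, adjusted p = 2.13e-05).

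Among the mitotic kinases, PLK4 and AURKB were lower, PLK1 was slightly higher and AURKA was not called. PLK4, which licenses centriole duplication, had 27.4 and 31.2 CPM in the controls and 19.7 to 23.0 CPM with the hairpins (−0.46 ± 0.10, edgeR adjusted p = 0.000754). AURKB, the kinase of the chromosomal passenger complex, had 74.1 and 78.5 CPM in the controls and 60.5 to 65.0 CPM with the hairpins (−0.27 ± 0.05, adjusted p = 0.000586). Neither gene's groups overlapped. PLK1, which acts from mitotic entry to cytokinesis, had 189 and 186 CPM in the controls and 199 to 213 CPM with the hairpins (0.14 ± 0.04, adjusted p = 0.00493). The PLK1 call was lost without shControl replicate 2 (0.12, adjusted p = 0.0712), and under total counts the value was −0.02 (adjusted p = 0.735). AURKA, the spindle-pole kinase, had 87.7 and 88.2 CPM in the controls and 86.2 to 91.9 CPM with the hairpins (0.03 ± 0.05, adjusted p = 0.666; under total counts −0.13, adjusted p = 0.0268).

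The partners of AURKB in the chromosomal passenger complex did not follow it downward. BIRC5, survivin, had 156 CPM in both controls, 188 and 198 CPM with shRNA1 and 189 and 205 CPM with shRNA2, with no overlap (0.32 ± 0.04, edgeR adjusted p = 8.11e-06). CDCA8, borealin, reached 0.13 ± 0.05 (adjusted p = 0.0464), and was called with shRNA2 alone (0.15, 0.0493) and not with shRNA1 alone (0.11, 0.144). The call for the mean was lost when any of 5 libraries was left out, all but shRNA1 replicate 1 (adjusted p = 0.0554 to 0.260), and with DESeq2 (0.0957), and its value was −0.02 under total counts (0.760). INCENP, the scaffold of the complex, was not called (0.06 ± 0.06, adjusted p = 0.345). It had 60.1 and 60.8 CPM with shRNA1, 66.1 and 70.3 CPM with shRNA2 and 60.6 and 62.2 CPM in the controls, and its unadjusted p between the hairpins was 0.0170.

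**Figure D3:**
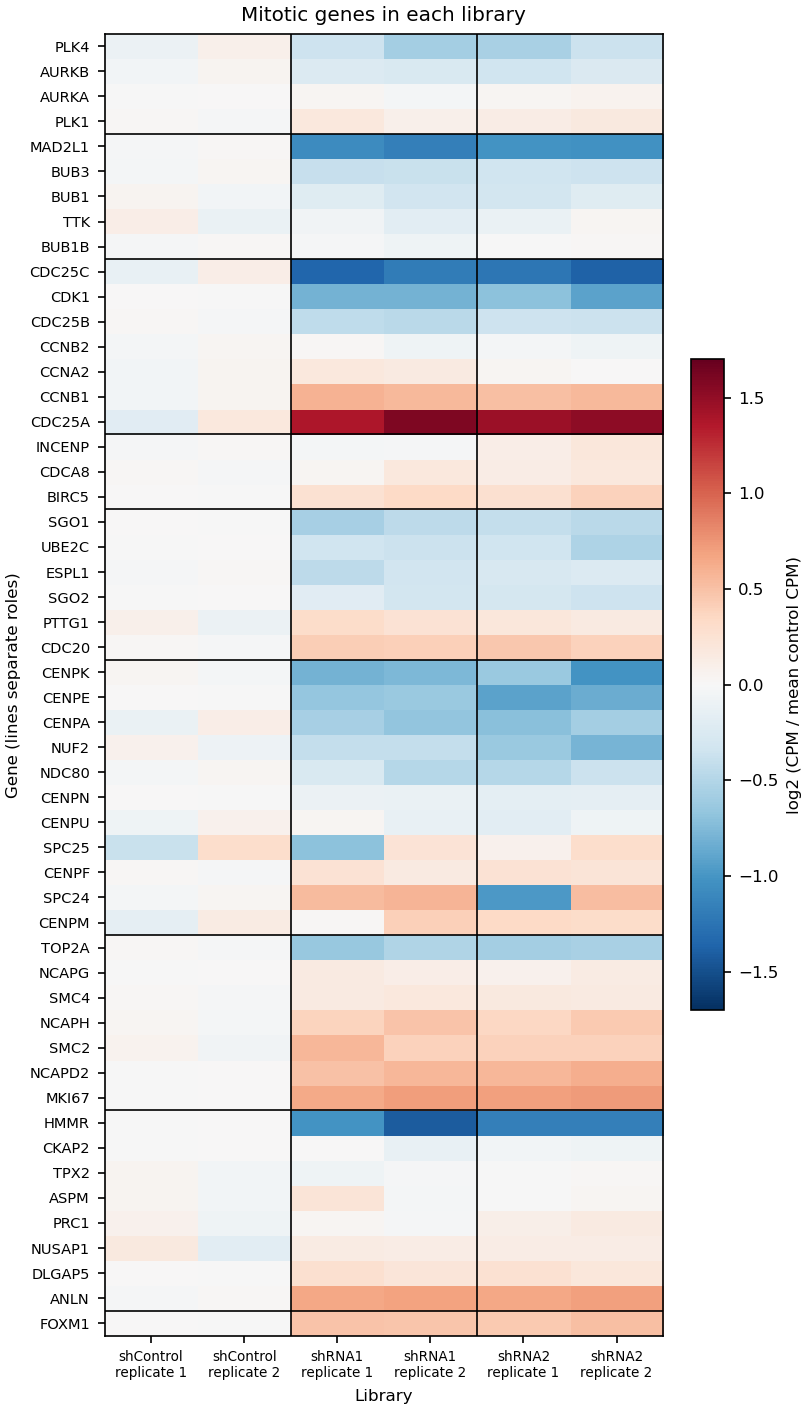
Each cell gives log2 of the CPM of a gene in 1 library over its mean CPM in shControl, for 52 genes by role (horizontal lines) and the 6 libraries by group (vertical lines). CDC25A is the most strongly raised, CDC25C, HMMR and MAD2L1 the most strongly lowered in all 4 knockdown libraries, and SPC24 stands apart in shRNA2 replicate 1 at 20.6 CPM.

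Of the 11 kinetochore genes 6 were lower, 1 was higher and 4 were not called, where 28.9% of all tested genes were lower and 28.6% higher. Their median log2 fold change was −0.13, against −0.03 for all tested genes. Wider kinetochore lists, given further on, held more genes called higher than lower, with medians of −0.14 (inner) and 0.20 (outer). CENPE, the motor that moves chromosomes to the spindle equator, had 61.3 and 60.8 CPM in the controls, 38.7 and 39.4 CPM with shRNA1 and 32.6 and 34.1 CPM with shRNA2 (−0.76 ± 0.06, edgeR adjusted p = 3.58e-08). Both hairpins lay far below the controls, and shRNA2 below shRNA1, a difference with an unadjusted p of 0.00762 that was not called. CENPA, the histone variant that marks centromeres, had 35.8 and 41.8 CPM in the controls and 23.7 to 26.2 CPM with the hairpins (−0.63 ± 0.09, adjusted p = 1.10e-05). It shares 138 exon bases on the same strand with SLC35F6, which had 29241 counts over the 6 libraries against 4096 for CENPA. CENPK, an inner kinetochore subunit and the least abundant of the 52 genes per kb of exon, had 7.18 and 6.88 CPM in the controls and 3.49 to 4.52 CPM with the hairpins (−0.79 ± 0.18, adjusted p = 0.00165). None of these 3 genes had overlapping groups. CENPF, a large protein of the outer kinetochore, was the only one called higher, at 289 and 282 CPM in the controls and 317 to 339 CPM with the hairpins (0.22 ± 0.03, adjusted p = 4.96e-05).

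The 4 subunits of the NDC80 complex, the main microtubule grip of the kinetochore, did not share a pattern. NDC80 had 52.1 and 54.4 CPM in the controls and 38.1 to 44.4 CPM with the hairpins (−0.40 ± 0.07, edgeR adjusted p = 0.000205), and NUF2 had 41.5 and 37.2 CPM against 22.8 to 29.7 CPM (−0.55 ± 0.08, adjusted p = 2.14e-05). Those groups did not overlap. SPC25 was scarce and not called, at 4.50 and 7.20 CPM in the controls and 3.62 to 7.17 CPM with the hairpins (0.01 ± 0.26, adjusted p = 0.982). SPC24 turned on single libraries: it had 39.9 and 41.5 CPM in the controls, 59.3 and 60.8 CPM with shRNA1, and 20.6 and 58.8 CPM in replicates 1 and 2 of shRNA2. Its mean fold was 0.25 ± 0.52 (adjusted p = 0.728). Without shRNA2 replicate 1 it was 0.54 (adjusted p = 4.19e-06), and without shRNA2 replicate 2 it was −0.21 (adjusted p = 0.0204). Of the 3 other inner kinetochore genes, only CENPN was called for the mean. CENPN was at −0.13 ± 0.05 (adjusted p = 0.0410), called with shRNA2 alone (−0.16, 0.0384) and not with shRNA1 alone (−0.11, 0.158), and the call for the mean was lost when any library but shRNA2 replicate 2 was left out (adjusted p = 0.0649 to 0.150) and with DESeq2 (0.122). CENPU was at −0.09 ± 0.10 (adjusted p = 0.462). CENPM was at 0.27 ± 0.11 (adjusted p = 0.0550), and it was called without shRNA1 replicate 1 (0.38, adjusted p = 0.00683) or shControl replicate 2 (0.43, adjusted p = 0.0236), and with the replicate number as a block (0.28, adjusted p = 0.0225).

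Condensin and chromosome structure was the role with the most genes higher, 5 of 7, with 1 lower, 1 not called and a median of 0.42. Over all tested genes 28.6% were higher and 28.9% lower, with a median of −0.03. NCAPD2, a HEAT-repeat subunit of condensin I, had 160 and 162 CPM in the controls, 227 and 237 CPM with shRNA1 and 239 and 247 CPM with shRNA2 (0.56 ± 0.04, edgeR adjusted p = 2.02e-09). SMC2, a core ATPase of both condensins, had 77.0 and 70.7 CPM in the controls and 96.7 to 109 CPM with the hairpins (0.44 ± 0.06, adjusted p = 8.01e-06), and NCAPH, the kleisin that closes the ring, had 28.6 and 27.2 CPM against 35.5 to 38.8 CPM (0.42 ± 0.08, adjusted p = 0.000213). All 3 had every knockdown library above both controls. SMC4, the partner ATPase, rose less (0.16 ± 0.03, adjusted p = 0.000465). NCAPG was not called (0.12 ± 0.05, adjusted p = 0.0719), although its 4 knockdown libraries, at 66.8 to 70.6 CPM, all lay above the controls at 63.4 and 63.5 CPM, and it passed without shRNA1 replicate 2 (0.15, adjusted p = 0.0491). NCAPG shares 1631 exon bases with LCORL and SMC4 1561 with TRIM59, each on the other strand.

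MKI67 and TOP2A, both widely used as proliferation markers, moved in opposite directions. MKI67, whose protein Ki-67 coats mitotic chromosomes, had 335 and 337 CPM in the controls, 526 and 550 CPM with shRNA1 and 545 and 555 CPM with shRNA2. Its libraries fell into 2 tight, separate sets, at 161.9% of the control level with the hairpins (0.69 ± 0.03, edgeR adjusted p = 3.04e-11). TOP2A, the topoisomerase that untangles sister chromatids, had 383 and 375 CPM in the controls, 243 and 265 CPM with shRNA1 and 253 and 258 CPM with shRNA2. It stood at 67.2% of the control level, again with no overlap (−0.57 ± 0.04, adjusted p = 1.66e-09). Per kb of exon the ratio of MKI67 to TOP2A was 0.439 and 0.453 in the controls and 1.04 to 1.09 in the knockdown libraries.

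Of the 8 genes of the spindle and cytokinesis, 2 were higher, 1 lower and 5 not called, where 57.5% of all tested genes were called. ANLN, anillin, the scaffold of the contractile ring, had 194 and 199 CPM in the controls, 310 and 315 CPM with shRNA1 and 311 and 318 CPM with shRNA2 (0.67 ± 0.03, edgeR adjusted p = 8.98e-11). HMMR, a spindle-associated hyaluronan receptor, had 66.3 and 67.2 CPM in the controls, 33.0 and 25.1 CPM with shRNA1 and 29.8 and 29.9 CPM with shRNA2 (−1.18 ± 0.09, adjusted p = 3.47e-08). Both genes had groups that did not overlap, HMMR at 44.0% of its control level and ANLN at 159.5%. DLGAP5, a spindle-assembly protein, was higher by less (0.23 ± 0.05, adjusted p = 0.00109). The genes not called were TPX2, which activates Aurora A on the spindle (−0.02 ± 0.03, adjusted p = 0.664), CKAP2 (−0.06 ± 0.06, 0.385), ASPM, of the spindle poles (0.06 ± 0.06, 0.475), PRC1, which bundles midzone microtubules (0.07 ± 0.04, 0.187), and NUSAP1 (0.13 ± 0.10, 0.293). Without shControl replicate 1, NUSAP1 was 0.30 (adjusted p = 0.000428) and PRC1 0.14 (0.0294), and without shRNA1 replicate 2 ASPM was 0.13 (0.0467). PRC1 was called with shRNA2 alone (0.13, adjusted p = 0.0354). PRC1 shares 3181 exon bases with AC068831.7 and NUSAP1 1787 with AC087721.2 on the same strand, so that reads there cannot be told apart.

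FOXM1, the forkhead factor that activates many of these genes, was higher with both hairpins. It had 186 and 183 CPM in the controls, 257 and 255 CPM with shRNA1 and 250 and 261 CPM with shRNA2 (0.47 ± 0.03, edgeR adjusted p = 8.93e-09). All 4 knockdown libraries lay above both controls.

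**Figure D4:**
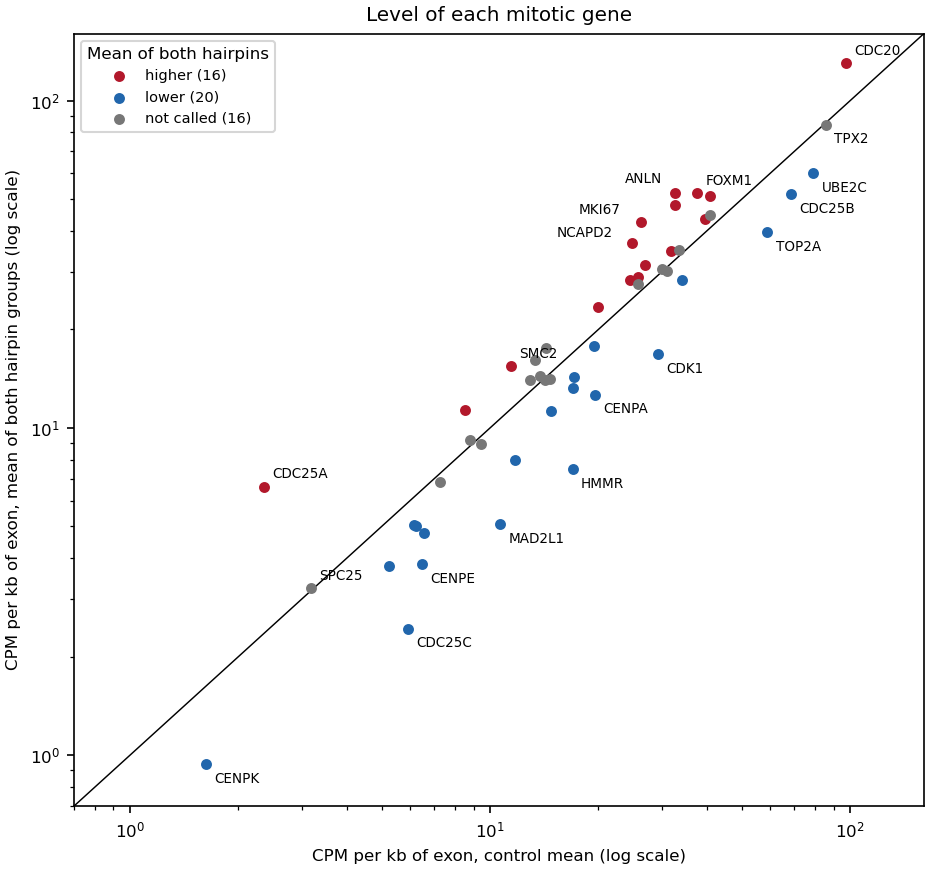
Levels of the 52 genes in CPM per kb of exon are plotted on log axes, with the shControl mean on the x axis, the mean of both hairpin groups on the y axis and the line of equal levels. In the controls they ran from 1.63 (CENPK) to 97.2 (CDC20), and genes that were higher and lower are found across this range.

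The levels of these genes spanned a wide range before any knockdown. In the controls CENPK (1.63 CPM per kb of exon), CDC25A (2.36) and SPC25 (3.18) were the scarcest and CDC20 (97.2), TPX2 (85.5), UBE2C (78.8) and CDC25B (68.4) the most abundant. Of these, CDC25A and CDC20 were higher and CENPK, UBE2C and CDC25B lower.

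No difference between the hairpins was called for these genes. The knockdown libraries all lay below both controls for 20 of the 52 genes, against 34.2% of all tested genes, and all above for 17, against 32.7%, which are the genes called for the mean together with NCAPG. No member was called between shRNA1 and shRNA2 by edgeR or DESeq2, where edgeR called 0.0312% of all tested genes (0.00623% higher and 0.0249% lower with shRNA1). At an unadjusted p under 0.05 there were 6 in edgeR, the smallest being NUF2 (0.00672) and CENPE (0.00762), both lower with shRNA2. The share of all tested genes under that unadjusted threshold is not given here, so this count has no background to be read against.

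The direction moved with base composition across the 52 genes. The median exonic GC content was 48.8% in the genes that were higher, 40.7% in those that were lower and 42.9% in those not called, and across genes, which are not independent replicates and share their libraries, Spearman's rho of the fold with GC content was 0.39 (0.11 over 15902 tested genes). With exon length it was 0.00. After removal of the smooth trend of folds on GC content and exon length over all genes, 17 of the 52 were higher and 19 lower. PLK1, CDCA8 and SGO2 were then no longer called, and CCNA2, NCAPG and ASPM were called higher. The part of base composition in the remaining calls was not tested.

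The wider division machinery, in lists drawn up with earlier results known, was mixed as well. The counts below stand beside 28.6% of all tested genes called higher and 28.9% called lower. None of the 143 genes of these lists was called between the hairpins by edgeR. At an unadjusted p under 0.05 there were 4, again without the share of all tested genes beside them. Of 3 genes of condensin II, NCAPH2 was higher (0.65 ± 0.05, edgeR adjusted p = 9.55e-09), NCAPG2 was lower (−0.30 ± 0.04, adjusted p = 2.11e-05) and NCAPD3 was not called (0.05 ± 0.07, 0.525). Of 13 genes of the cohesin ring, its loader and its release, 4 were higher and 5 lower, with RAD21, the kleisin that separase cuts, at −0.35 ± 0.03 (adjusted p = 4.73e-08) and SMC1A, a core ATPase, at 0.50 ± 0.04 (1.22e-07). PDS5B (0.52 ± 0.08, 4.77e-05), ESCO2 (0.48 ± 0.17, 0.0270) and STAG1 (0.17 ± 0.07, 0.0476) were the other genes higher, although STAG1 passed with neither single hairpin and ESCO2 with shRNA2 but not shRNA1. Of 17 subunits, enzymes and regulators of the anaphase-promoting complex, 7 were higher and 6 lower. ANAPC5 (0.74 ± 0.05, adjusted p = 3.70e-09) and ANAPC15 (1.10 ± 0.09, 2.46e-08), both subunits, were higher, and UBE2S, which extends ubiquitin chains on it, was lower (−0.64 ± 0.05, 2.31e-08). The other genes lower were CDC27, ANAPC16, ANAPC1, CDC23 and FBXO5, by −0.25 to −0.37, although FBXO5 passed with shRNA2 but not shRNA1.

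The other kinetochore lists held more genes called higher than lower. Their median log2 fold changes were −0.14 (inner) and 0.20 (outer), and 28.6% and 28.9% of all tested genes were called higher and lower. Of 16 genes of the inner kinetochore and of CENP-A loading, 6 were higher and 4 lower. CENPX was higher (1.19 ± 0.08, edgeR adjusted p = 4.12e-09) and HJURP, the chaperone that deposits CENP-A, was lower (−0.60 ± 0.05, 2.27e-08), as CENPA was. CENPL, CENPH and CENPC were the other genes lower, by −0.23 to −0.40, and each was called with shRNA2 alone and not with shRNA1. Of 13 outer kinetochore genes 7 were higher and 4 lower, with ZWINT, which ties the RZZ complex to KNL1, rising from 28.4 CPM in the controls to 73.7 and 70.7 CPM with the hairpins (1.35 ± 0.06, adjusted p = 6.05e-11), and SKA1 falling from 20.2 to 10.3 and 10.8 CPM (−0.94 ± 0.11, 1.62e-06). SPDL1, KNTC1 and MIS12 were lower as well, by −0.27 to −0.51, although MIS12 passed with shRNA2 but not shRNA1. Among 6 checkpoint partners, MAD1L1, which carries MAD2 to kinetochores (0.50 ± 0.07, adjusted p = 1.24e-05), TRIP13, which remodels MAD2 (0.36 ± 0.06, 0.000102), and CHAMP1 (0.38 ± 0.14, 0.0262, not passing with shRNA2 alone) were higher and HASPIN was lower (−0.57 ± 0.14, 0.00237). Of 21 genes of the centrosome, spindle poles and midbody 10 were lower and 4 higher. The smallest p were those of ECT2, the exchange factor that switches on RhoA for cytokinesis (−0.71 ± 0.04, adjusted p = 7.47e-10), DEPDC1 (−0.76 ± 0.06, 1.64e-08) and CKAP5 (−0.28 ± 0.03, 7.37e-07). Other genes of the list fell by more than CKAP5, such as NEK2 (−0.60). The 4 that were higher, NUMA1, CEP55, FAM83D and GTSE1, were so by 0.15 to 0.27, although GTSE1 passed with neither single hairpin.

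Among regulators of CDK1, several of the most changed genes were lower. Of 11 brakes on CDK1, CDK-binding proteins and members of the Greatwall arm, 5 were lower, 2 higher and 4 not called, where 28.9% and 28.6% of all tested genes were lower and higher. CDKN1A, the CDK inhibitor p21, fell from 207 CPM in the controls to 65.2 and 67.5 CPM with the hairpins (−1.64 ± 0.05, edgeR adjusted p = 3.09e-12). WEE1, the kinase that places the inhibitory phosphate on CDK1, fell from 70.2 to 44.3 and 41.3 CPM (−0.71 ± 0.06, 5.64e-08). CKS1B, a small CDK-binding protein, fell from 95.5 to 54.0 and 51.6 CPM (−0.86 ± 0.06, 4.70e-09), whereas PKMYT1, the other inhibitory kinase of CDK1, was higher for the mean (0.33 ± 0.11, 0.0367) though with neither hairpin alone (adjusted p = 0.0621 and 0.0634). ENSA, of the Greatwall arm, was higher too (0.41 ± 0.05, 2.72e-06), and ARPP19, its close relative, was lower (−0.55 ± 0.04, 1.10e-08).

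Of 23 genes that control transcription of the mitotic set, 7 were higher, 6 lower and 10 not called. Among all tested genes 28.6% were higher and 28.9% lower. MYBL2, which joins the MuvB complex to activate late genes, rose from 155 CPM in the controls to 257 and 264 CPM (0.75 ± 0.03, edgeR adjusted p = 4.26e-11), and TFDP1, the dimer partner of E2F proteins, from 38.8 to 92.5 and 93.9 CPM (1.26 ± 0.06, 6.50e-11). E2F7 fell from 61.5 to 17.8 and 20.5 CPM (−1.69 ± 0.08, 7.51e-11). E2F1 was higher (0.92 ± 0.07, 3.10e-08), and E2F5 (−2.39 ± 0.15, 1.35e-09) and RBL2 (−0.86 ± 0.06, 8.10e-09) were lower. The retinoblastoma gene RB1 (−0.57 ± 0.06, 7.25e-07) and LIN54, the DNA-binding subunit of MuvB (−0.52 ± 0.09, 0.000222), were lower as well. Other genes of the list were higher: E2F2 (1.04 ± 0.11, edgeR adjusted p = 1.13e-06), E2F4 (0.32 ± 0.07, 0.00123), E2F8 (0.41 ± 0.11, 0.00623) and RBBP4 (0.33 ± 0.04, 3.41e-06). RBL1 was not called (0.19 ± 0.08, 0.0612). The NF-Y subunit NFYB was lower (−0.88 ± 0.11, 4.53e-06), while NFYA (0.15 ± 0.06, 0.0534) and NFYC (0.06 ± 0.08, 0.594) were not called.

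A list of S-phase genes, also drawn up with earlier results known, was mostly higher. Of 20 genes of replication licensing, DNA synthesis and G1/S cyclins, 19 were higher, where 28.6% of all tested genes were, and 1, CDC45, was lower (−0.27 ± 0.10, edgeR adjusted p = 0.0279), passing with shRNA2 but not shRNA1. Their median log2 fold change was 1.07, against −0.01 for the 52 mitotic genes and −0.03 for all tested genes. MCM4, a subunit of the replicative helicase, rose from 114 CPM in the controls to 316 and 318 CPM (1.47 ± 0.04, adjusted p = 5.38e-14). MCM2 (1.07 ± 0.04, 5.29e-12) and MCM3 (1.15 ± 0.05, 2.67e-11), of the same ring, rose too. CDC25A, the member with the largest rise, lay within the range of this list, −0.27 to 1.75. Of 17 S-phase promoter windows 1 held a CHR (5.88%) and 8 an E2F motif (47.1%). An NF-Y box was in 13 of them (76.5%), and 2 or more boxes in 9 (52.9%). For the 44 windows of mitotic genes these NF-Y shares were 72.7% and 45.5%, so NF-Y boxes did not set the 2 lists apart. The CDC25A window held an E2F motif and no CHR. An E2F motif was also in the windows of CDK1, which was lower, and of CENPU and NUSAP1, which were not called.

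**Figure D5:**
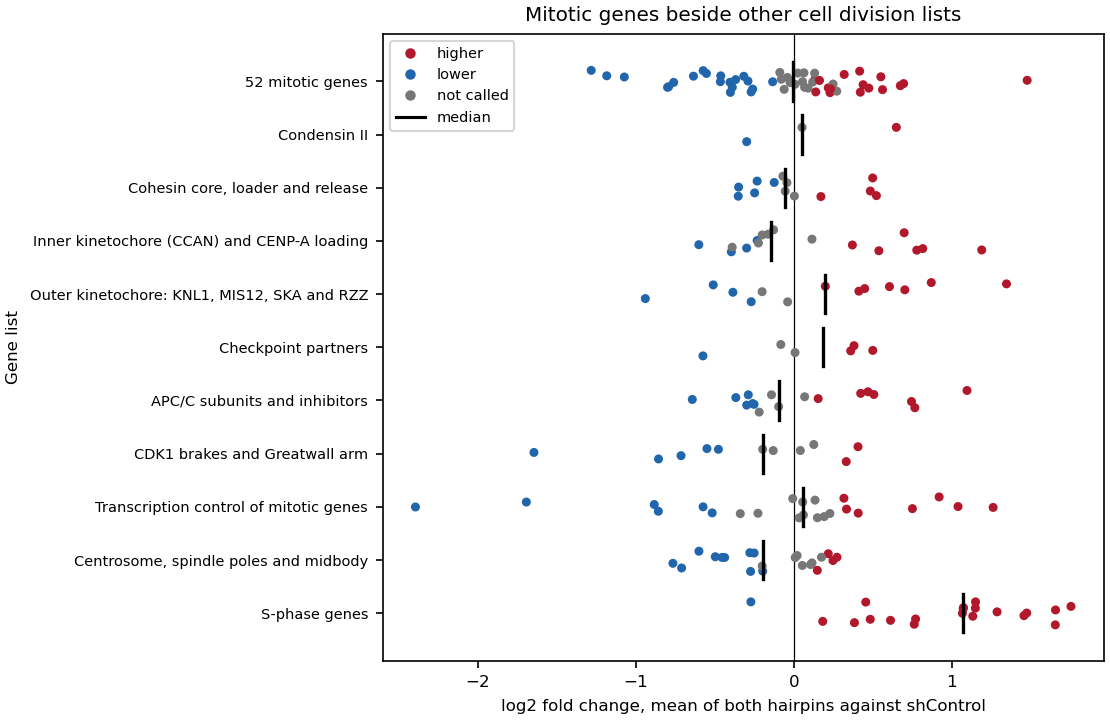
Each point is 1 gene, placed by its log2 fold change averaged over both hairpins, and coloured by its edgeR call, with a bar at the median of each list. The 52 mitotic genes lie on both sides of 0 (median −0.01), and 19 of the 20 S-phase genes lie to the right (median 1.07).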

How the data were processed

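The deposited table holds raw counts (whole numbers) for 60649 genes in 6 libraries, each gene named by Ensembl ID and symbol, from paired-end sequencing of total RNA per the labels. Per the submitters' processing notes, reads were handled with FastQC 0.11.9, Trim Galore 0.6.7, HISAT2 2.2.1 (hg38) and StringTie 2.2.1; for the step that made the counts, the tool, annotation and strand setting are not given in the sources used.

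Counts were fitted in R 4.3.3 with edgeR 4.0.16 (filterByExpr by group, TMM factors, robust quasi-likelihood over all 3 groups), and a gene was called at an adjusted p (Benjamini-Hochberg, over 16039 genes) under 0.05. CPM are over TMM-scaled library sizes. Exon lengths, GC content and overlaps come from GENCODE 29, which holds 96.3% of the gene IDs, and promoter windows from RefSeq (GRCh38.p14). Code was tested on simulated data. Alternatives included DESeq2 1.42.0, other scalings and filters, a length and GC trend fitted with mgcv 1.9-3, and each library left out. The genes and lists were chosen with earlier results of these data known. All 52 genes are given, and of each other list up to 3 genes with the smallest p and those called against its majority. WEE1, CHAMP1, E2F1, E2F2, E2F4, E2F8, RBBP4, RBL1, NFYA and NFYC were added after their values were seen. A search for genes outside the set with a like mean profile is not reported, because members moved both ways and their mean profile is nearly flat.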

Additional observations from a re-analysis of the deposited data

How the results depend on the processing

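Of the 36 calls, 24 were kept under all 15 alternatives, 9 higher and 15 lower, and 10 higher and 18 lower were kept when the test against a fold of 1.2 was set aside. Under total counts, without TMM factors, 10 genes were higher for the mean and with each hairpin, the medians were −0.16 (mean), −0.19 (shRNA1) and −0.15 (shRNA2), and AURKA (−0.13), PLK1 (−0.016) and CDCA8 (−0.0209) reversed. Over all genes, 36.1% of called genes were then higher, against 49.7%. The test against a fold of 1.2 kept 9 higher and 15 lower for the mean, 9 higher and 12 lower with shRNA1, and 8 higher with shRNA2. Removing the length and GC trend moved the medians to 0.0287, 0.0062 and 0.0356, and fitting without a low-count filter moved that of shRNA1 to −0.0643. DESeq2 called 15 higher and 19 lower.

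Leaving out each library in turn, the median ranged from −0.0366 to 0.0154 for the mean, −0.0435 to 0.0271 with shRNA1 and −0.0416 to 0.0245 with shRNA2. SPC24 was 0.54 without shRNA2 replicate 1 and reversed to −0.21 without shRNA2 replicate 2, which was also the case in which 1 gene was called higher between the hairpins, against 0 otherwise. Leaving a group with 1 library assumes that it varies like the others.

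The labels do not say that a replicate number pairs libraries, and the deviations of same-numbered libraries from their group means were uncorrelated or nearly so (correlations −0.0012, 0.0107 and −0.0290). With the replicate number as a block, 17 genes were higher and 20 lower with a median of 0.0035, and CENPM alone changed its call (0.28, adjusted p = 0.0225). A fit to only the groups compared could not be made for the mean, which already uses all groups. The cause of these shifts was not tested. The scarcest genes limit what depth can show: for SPC25 a standard error of 0.26 leaves moderate changes undetectable.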
